A study of Mus musculus with 8 samples.

Results

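The enzymes and helpers that turn collagen chains into crosslinked fibrils were followed across the cells of the adult mouse tibia. The 10 genes P4ha1, P4ha2, P4hb, Plod1, Plod2, Plod3, Serpinh1, Lox, Loxl2 and Pcolce are listed by name, with no threshold on their values, and make up 10 of the 31053 genes in the data. All 10 were detected. Cells came from tibiae at P56 (8 weeks) of untreated mice. Every mouse carried MMP14 F/+ together with COL10A1cre, and had R26-tdT as well as Col1a1-2.3-GFP as reporters. The animals thus all have 1 floxed Mmp14 allele. Cre acts from Col10a1, so that hypertrophic chondrocytes (HCs) and their descendants lose that allele and carry the tdTomato reporter. Cells of 3 mice were pooled, and the 8 labelled samples form 1 group whose barcodes carry no mark of sample or mouse, so the data were treated as 1 sample. No difference described here has a replicate check and no p-value was computed.

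Collagen chains are modified while they enter the endoplasmic reticulum (ER). Prolyl 4-hydroxylase, built from a catalytic alpha subunit (P4ha1 or P4ha2) and the beta subunit P4hb, hydroxylates proline and so lets the triple helix hold at body temperature. Lysyl hydroxylases (Plod1, Plod2 and Plod3) hydroxylate lysine, Plod2 being the enzyme of the telopeptides that later take part in crosslinks, and Serpinh1 (HSP47) is the chaperone that binds the finished helix. Outside the cell Pcolce enhances removal of the C-propeptide, and Lox and Loxl2 oxidise lysine to start crosslinking. Cartilage uses these steps on type II collagen, bone on type I collagen.

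Levels are given as CPM, the UMIs of a gene (unique molecular identifiers, each counting 1 captured transcript) in every 1000000 UMIs of the cells in a gate, with exact Poisson 95% intervals. Shares of cells carry Clopper-Pearson 95% intervals. Where 0 UMIs were counted, the level of 3 UMIs is given as the limit in place of an interval. The intervals measure the error of counting and say nothing of how cells or mice vary. The libraries were read from the 3′ end, so a level is not divided by transcript length, and levels are compared between cells and not between genes. Barcodes with at least 1600 genes numbered 4472 of 12564, with 3224 to 103543 UMIs each and a median of 10451.5. Cells were sorted into 8 gates by raw counts of marker genes. The gates held 243 growth-plate chondrocytes (Col2a1 at least 10, Prg4 at most 1), 79 Col10a1/Ihh chondrocytes (sum at least 5), 197 Prg4/Cilp chondrocytes (sum at least 2 with Acan at least 1) and 54 Bglap osteoblasts (at least 20). The others were 23 Cxcl12 stromal cells (Cxcl12 at least 20, Lepr and Adipoq together at least 2), 164 fibroblasts (Dcn and Col3a1 each at least 3), 89 Cdh5 cells (at least 1) and 3286 Ptprc blood cells (at least 1). Median depth differed between gates, from 7235 UMIs in Cdh5 cells to 25759.5 in Bglap osteoblasts, so some shares of cells are also given after thinning each cell to 3000 UMIs.

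The gates overlapped, and 303 cells lay in more than 1. Of the 54 Bglap cells 25 were also in the growth-plate gate, 43 of the 79 Col10a1/Ihh cells were in the growth-plate gate and 35 in the Prg4/Cilp gate, and 81 fibroblasts were also Prg4/Cilp cells. Ptprc was seen in 4.35% (stroma) to 25.9% (Bglap cells) of the cells of the other 6 gates. Of the 89 Cdh5 cells 47 held Ptprc, and their neutrophil markers summed to 36563 CPM, so the 38 cells in no other gate are given beside the gate. These 38 had all 7 endothelial markers, summing to 5750 CPM, with neutrophil markers at 800. Checked against marker lists, the osteoblast gate held all 10 osteoblast markers, yet 12 of its 54 cells had no Col1a1 UMI. Those 12 all held Acan and Col2a1, 10 held Ihh and 11 were in the growth-plate gate. Their Bglap counts reached 173 UMIs, with a median of 34, against a median of 253.5 in the 42 Bglap cells with Col1a1. The 12 therefore go against the osteoblast label, and the levels of the 10 genes are given below with and without them. Among Ptprc cells, 136 also lay in another gate, and the 3150 outside the other 7 gates served as the background for transcripts found outside their source cells.

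Prolyl 4-hydroxylase subunits were widespread among matrix-making cells. P4ha1, the alpha subunit found in most tissues, was at 237 CPM (224 to 250) in growth-plate chondrocytes and between 183 and 220 in Col10a1/Ihh cells, Prg4/Cilp cells, Bglap osteoblasts and fibroblasts. Ordered by level, neighbouring gates had overlapping intervals, but that of growth-plate chondrocytes lay above that of Bglap osteoblasts (161 to 206). Cells of no other gate were further apart, with 248 (229 to 267) in growth-plate chondrocytes, 118 (90.0 to 151) in fibroblasts and 113 (77.5 to 160) in Bglap osteoblasts. In Cxcl12 stroma it was at 51.7 (25.8 to 92.6) and in blood cells outside other gates at 15.2. The 58 C1q macrophages held 60.8 (43.4 to 82.8).

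P4ha2, the alpha subunit prominent in cartilage, had a narrower range of cells. It was highest in Col10a1/Ihh cells at 195 (176 to 216), and reached 179 in Prg4/Cilp cells, 155 in growth-plate chondrocytes and 147 in Bglap osteoblasts, with overlapping intervals between neighbours. The Col10a1/Ihh interval lay above those of growth-plate chondrocytes (145 to 166) and Bglap osteoblasts (128 to 168). Fibroblasts held 111 (97.5 to 125). Their interval lay below that of the Bglap gate but overlapped that of the 42 Bglap cells with Col1a1, 122 (102 to 145). In cells of no other gate fibroblasts held 57.9 (39.1 to 82.6) and Bglap osteoblasts 95.6 (63.0 to 139), with overlapping intervals. P4ha2 was seen in 91.1% of Col10a1/Ihh cells, 79.8% of growth-plate chondrocytes, 3.37% of Cdh5 cells and 0.508% of blood cells outside other gates. After thinning these shares were 45.0%, 33.0%, 1.03% and 0.132%. The 22 Acp5/Ctsk osteoclasts held 0 UMIs, where 3 UMIs would be 4.90 CPM. P4ha2 made up 39.6% (37.6% to 41.7%) of the joint P4ha1 and P4ha2 UMIs in growth-plate chondrocytes but 2.96% (1.76% to 4.64%) in blood cells outside other gates.

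P4hb, which also acts as a general disulphide isomerase, was present in all gates. Its level ran from 542 (523 to 561) in growth-plate chondrocytes to 204 (175 to 236) in Cdh5 cells and 149 (145 to 153) in blood cells outside other gates. Osteoclasts had 217 and macrophages 223. Its range over the cells was thus far narrower than those of its catalytic partners.

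**Figure D1:**
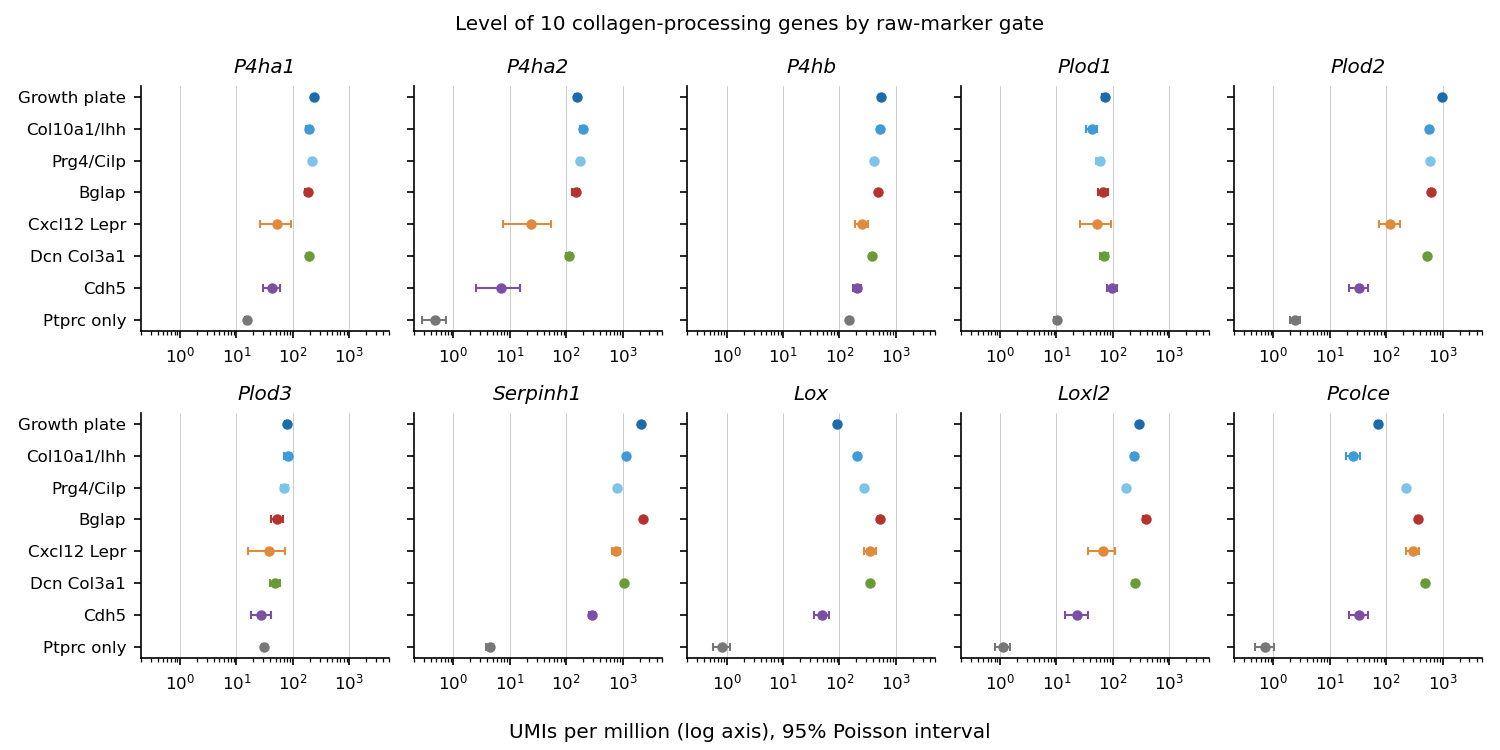
CPM (log axis) of the 10 genes in 8 gates, with blood cells limited to the 3150 outside the other gates ("Ptprc only"); bars are Poisson 95% intervals, often narrower than the point. P4hb spans 149 to 542 CPM, whereas Lox, Loxl2, Pcolce and P4ha2 lie near 1 in blood cells.

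Because P4ha1, P4ha2, P4hb and Plod2 were high together in the chondrocyte and osteoblast gates, the promoters of the 10 genes were searched for a shared motif. RefSeq promoter sequences (GRCm38.p6, 250 bases before to 50 after the start site) matched 7 of the 10 genes, with Plod2, Lox and Loxl2 unmatched. The motif ACGTG, the core of hypoxia-response elements, was searched on both strands (on the other strand it reads CACGT, and both overlap in CACGTG). It occurred in 5 of the 7 promoters, in 16 of 35 promoters of the wider collagen pathway (45.7%) and in 6447 of all 32851 promoters (19.6%). Each match is printed with up to 12 bases on either side, 5′ to 3′ on the gene's strand, with the match in capitals. It begins 16 (P4ha1), 78 (P4ha2), 56 (P4hb), 54 (Plod3) and 171 (Serpinh1) bases before the start site, and second matches of P4ha2 and P4hb begin 10 and 35 bases after it, in the first bases transcribed.
P4ha1, chr10:59323268-59323296, + strand: tgtgacagagcgCACGTagcgagggctgc
P4ha2, chr11:54100834-54100862, + strand: tgtgcatcgcatACGTGcagcgcgtggcg
P4ha2, chr11:54100922-54100950, + strand: cgggaggtggggACGTGgcggaggctcaa
P4hb, chr11:120573293-120573321, - strand: tccgcccactgcCACGTtcgacggagaat
P4hb, chr11:120573204-120573230, - strand: cagccattccagACGTGtggaaggcgt
Plod3, chr5:136986953-136986981, + strand: cttgaagtcattACGTGatgttcccttgg
Serpinh1, chr7:99353394-99353422, - strand: accctgcttttcCACGTccaggaccgcgg
No match was found in the promoters of Plod1 and Pcolce, which says only that these letters are not in those windows. A match is a string of letters and not a measured binding site. The 11 usable genes of a hypoxia-response list summed to 1251 CPM in Col10a1/Ihh cells, 1222 in Prg4/Cilp cells, 1177 in growth-plate chondrocytes, 862 in fibroblasts, 758 in Bglap osteoblasts, 681 in Cdh5 cells and 498 in Cxcl12 stroma. Osteoclasts had 1144 and blood cells outside other gates 770.4. Abundant genes such as Ldha weigh most in these sums, and single members did not share 1 order. In growth-plate and Prg4/Cilp cells Ldha was at 569 and 500, Bnip3 at 50.7 and 113, and Egln3 at 1.06 and 25.5. The part of these genes in the levels above was not tested.

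Lysyl hydroxylases divided by cell type. Plod2 was highest in growth-plate chondrocytes, at 967 CPM (942 to 993), and was seen in all 243 of them. The 142 chondrocytes in no other gate reached 1207 (1166 to 1249). Bglap osteoblasts (626), Prg4/Cilp cells (611), Col10a1/Ihh cells (580) and fibroblasts (536) followed, with overlapping intervals from one to the next. The interval of Bglap osteoblasts (586 to 667) lay above that of fibroblasts (507 to 567). Fibroblasts in no other gate held 176 (141 to 216), below the level of the whole gate. Cxcl12 stroma had 118 (76.1 to 174). Plod2 was nearly absent from other cells, with 2 UMIs in the 38 Cdh5 cells in no other gate and 0 in osteoclasts.

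Plod1, the hydroxylase of helical lysines, differed from Plod2 mainly in Cdh5 and myeloid cells. Among growth-plate chondrocytes, fibroblasts, Bglap osteoblasts, Prg4/Cilp cells and stroma its level lay between 51.7 and 71.7 CPM, with overlapping intervals. Col10a1/Ihh cells held less, 42.6 (33.9 to 52.7), an interval apart from that of growth-plate chondrocytes (64.9 to 79.0). The Cdh5 gate held more, 97.2 (77.6 to 120), and the 38 Cdh5 cells in no other gate held 188 (144 to 242), with Plod1 seen in 71.1% of them (54.1% to 84.6%). At 3000 UMIs the share was 41.5% in these Cdh5 cells, 20.5% in chondrocytes of the growth-plate gate alone and 3.14% in blood cells outside other gates. Macrophages at 69.9 and osteoclasts at 57.2 CPM were at the level of the matrix-making cells.

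The balance of both enzymes put these differences on 1 scale. Capture differs between transcripts, so a share is read only against the same share in other cells. Plod2 gave 93.1% (92.4% to 93.7%) of the joint Plod1 and Plod2 UMIs in growth-plate chondrocytes, 90.4% (88.4% to 92.1%) in Bglap osteoblasts and 69.4% (51.9% to 83.7%) in Cxcl12 stroma. It gave 3.17% (0.387% to 11.0%) in Cdh5 cells of no other gate, 4.17% in macrophages and 0 of 35 UMIs in osteoclasts. Plod2 gave 67.4% (58.8% to 75.2%) in fibroblasts of no other gate. It gave 69.3% (65.4% to 73.0%) in 1240 granulocyte-lineage cells, 87.1% (83.6% to 90.2%) in 891 B cells and 17 of 21 UMIs in 22 plasma cells, with those 17 from 1 cell. These 3 sets include cells of the other gates, and the 3150 blood cells outside them held 95 Plod2 UMIs in all, against 366 in the B-cell set. In blood cells outside other gates the share was 19.3% (15.9% to 23.1%).

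Plod3, which also transfers glucose onto hydroxylysine, varied least of the 3 only when the Ptprc gate was counted. Over the other 7 gates Plod1 ran from 42.6 to 97.2 CPM. Plod3 ran from 81.1 (69.0 to 94.6) in Col10a1/Ihh cells to 27.8 (17.8 to 41.3) in Cdh5 cells, and the intervals of each pair of neighbours in this order overlapped. In blood cells outside other gates it was at 30.3 and in osteoclasts at 63.8. The 12 Bglap cells without Col1a1 held 101 (72.8 to 138) against 34.6 (24.4 to 47.7) in the 42 with Col1a1.

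**Figure D2:**
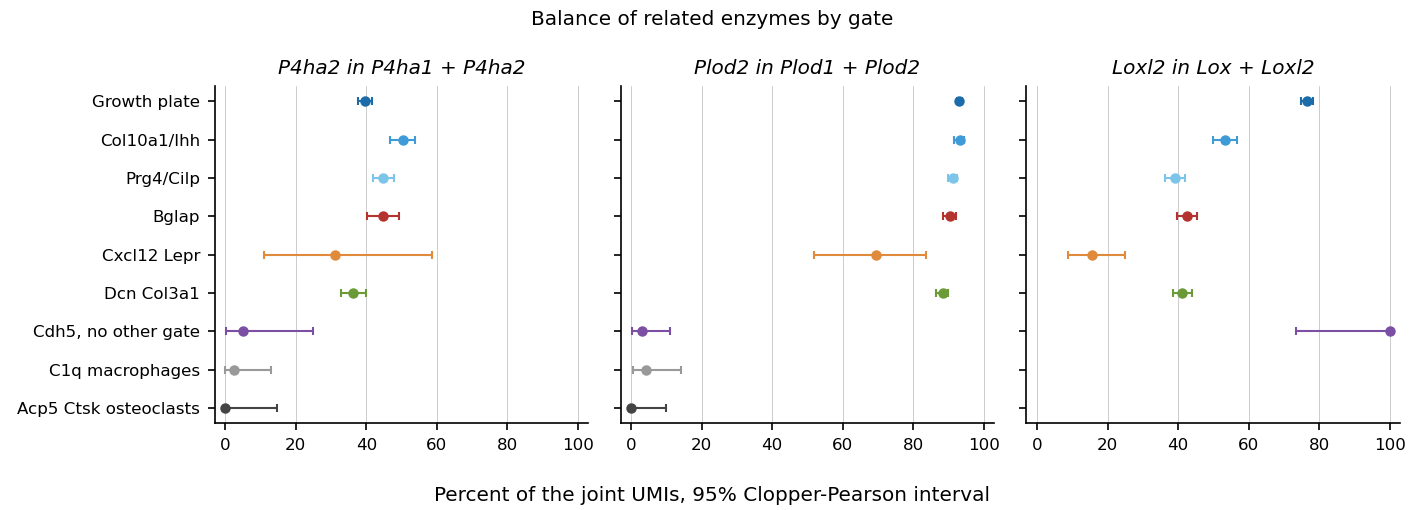
Share (percent of joint UMIs, with Clopper-Pearson 95% intervals) of P4ha2 against P4ha1, Plod2 against Plod1 and Loxl2 against Lox in 9 sets of cells, drawn where the pair has at least 10 UMIs. Plod2 gives 93.1% in growth-plate chondrocytes and 3.17% in Cdh5 cells of no other gate, and Loxl2 gives 76.6% in the growth-plate gate and 15.7% in Cxcl12 stroma.

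Serpinh1 was led by osteoblasts at 2326 CPM (2249 to 2405) and growth-plate chondrocytes at 2100 (2062 to 2138), and the 2 intervals did not overlap. The gates share 25 cells, however, and cells of no other gate held 2426 (2248 to 2615) and 2460 (2401 to 2520), with overlapping intervals. It was seen in all 54 Bglap cells, all 23 stromal cells and 242 of 243 growth-plate chondrocytes. Cxcl12 stroma made little fibrillar collagen (0.293% of its UMIs) and still held Serpinh1 at 767 (653 to 894), in 89.8% of cells at 3000 UMIs. Cdh5 cells in no other gate, with fibrillar chains at 0.0195% of UMIs, held 540 (463 to 627). These cells had Col4a1, a chain of the basement membrane, at 1807 CPM.
Osteoclasts marked the other end. They held 0 Serpinh1 UMIs in 22 cells, at a median of 27342.5 UMIs a cell, although P4hb was seen in all 22 of them. Blood cells outside other gates held Serpinh1 at 4.40 (3.77 to 5.12), and 48.5% of those UMIs came from 1 cell. In the entire Ptprc gate the level was 78.8, and 94.8% of its UMIs lay in the 136 cells that were also in another gate, which made up 4.14% of the gate's cells. The same 136 cells held 92.1% to 94.3% of the Ptprc gate's UMIs for P4ha2, Plod2, Lox, Loxl2 and Pcolce, but 12.1% for Plod3 and 14.4% for P4hb.

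Within the Col10a1/Ihh gate Serpinh1 separated the overlaps. Cells shared with the growth-plate gate held 1433 (1372 to 1496) and cells shared with the Prg4/Cilp gate 355 (305 to 411). The former held Ihh in 40 of 43 cells and Col2a1 at 56229 CPM, and the latter Ihh in 1 of 35 cells, Col2a1 at 9070 and Prg4 at 64346.

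Lox, which crosslinks collagen and elastin, had the steepest contrast between cartilage and bone among the 10 genes when Bglap cells were set against growth-plate chondrocytes. The gate levels were 514 CPM (478 to 552) in Bglap osteoblasts, 353 in both fibroblasts and Cxcl12 stroma, 268 in Prg4/Cilp cells, 207 in Col10a1/Ihh cells and 89.9 in growth-plate chondrocytes. The growth-plate value rested on the overlaps. Of 142 chondrocytes in no other gate 5 held Lox, at 7.75 CPM (4.80 to 11.9), and the median chondrocyte had none. Cells shared by the growth-plate and Bglap gates held 452 (410 to 498), but 15 of those 25 cells held all of it. The median there was 25.8, the upper quartile 1012 and the highest cell 1752.
Presence of Col1a1 divided the Bglap gate. The 42 Bglap cells with Col1a1 held Lox at 700 (651 to 752), in 83.3% of cells, and the 12 without it at 19.8 (8.54 to 39.0), in 3 cells. Growth-plate chondrocytes outside the Bglap gate held 19.8 as well. This split was chosen after the values were seen.

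Chondrocytes were not uniform for Lox. The 35 cells with Col10a1/Ihh and Prg4/Cilp counts held 688 (618 to 764), in 88.6% of cells, although 1 cell gave 25.8% of those UMIs. The 43 cells with Col10a1/Ihh and growth-plate counts held 41.0 (31.2 to 52.9), in 30.2% of cells. After thinning the shares were 59.2% of the 35 cells and 9.98% of the 43. Cxcl12 stroma had Lox in 82.6% of its 23 cells, 55.4% after thinning, against 0.245% of thinned blood cells outside other gates. Of the 42 Lox UMIs in the Cdh5 gate 69.0% came from 1 cell, and the 38 Cdh5 cells in no other gate held 0, where 3 UMIs would be 9.26 CPM.

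Loxl2, a lysyl oxidase whose substrates include basement-membrane collagen IV, was a gene of growth-plate chondrocytes by cell and of osteoblasts by sum. The Bglap gate held 380 CPM (349 to 413) and the growth-plate gate 294 (280 to 309). The median Bglap cell, however, held 53.3 and the median growth-plate cell 195, and Loxl2 was seen in 64.8% of the former and 86.8% of the latter. Bglap cells in no other gate held 67.3 (40.5 to 105), and 52.6% of their 19 UMIs came from 1 cell. Chondrocytes in no other gate held 285 (265 to 305).
The balance of the oxidases also differed between cells that share a gate. Loxl2 gave 97.3% (96.0% to 98.4%) of the joint UMIs in growth-plate chondrocytes of no other gate and 10.2% (6.23% to 15.4%) in Bglap cells of no other gate. It gave 83.8% in Col10a1/Ihh cells shared with the growth plate and 31.6% in those shared with Prg4/Cilp. In Cxcl12 stroma the share was 15.7%, from 89 UMIs.

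**Figure D3:**
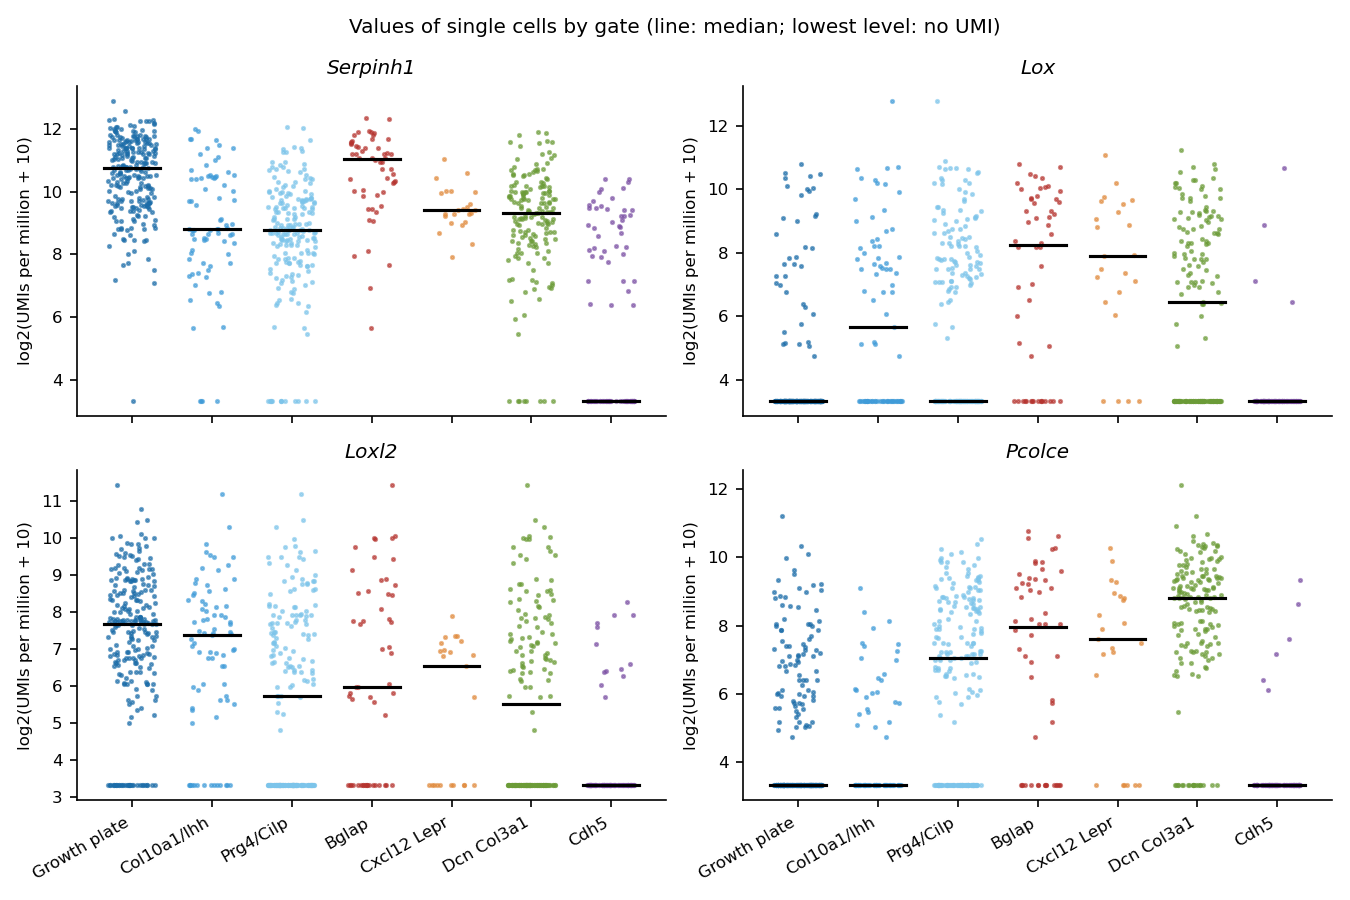
Each point is 1 cell, as log2 of its CPM plus 10; cells with no UMI form the lowest row and black lines are medians. The median growth-plate chondrocyte has no Lox and 195 CPM of Loxl2, whereas Bglap cells form a Lox-high and a Lox-negative group.

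Pcolce, the enhancer of C-propeptide cleavage, was led by fibroblasts at 485 CPM (457 to 514). Bglap osteoblasts held 369 (339 to 401) and Cxcl12 stroma 296 (228 to 379), with overlapping intervals, followed by Prg4/Cilp cells at 222, growth-plate chondrocytes at 72.8 and Col10a1/Ihh cells at 26.3. The cells in no other gate came closer together at the top, with 726 (630 to 833) in Bglap osteoblasts and 700 (630 to 776) in fibroblasts. Col10a1/Ihh cells of the growth-plate gate held 6.96 (3.34 to 12.8), 10 UMIs in 43 cells. As for Lox, the 12 Bglap cells without Col1a1 were low, at 9.89 (2.70 to 25.3) against 505 (463 to 549) in the 42 with it.
Pcolce2, a paralogue with the same role, was ordered differently over the gates. It was at 2459 CPM in Col10a1/Ihh cells, 1307 in growth-plate chondrocytes, 922 in Bglap osteoblasts, 402 in fibroblasts and 4.70 in Cxcl12 stroma.

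In the remaining genes the 12 Bglap cells without Col1a1 were not uniformly low. P4hb was at 742 (660 to 831) in them and 396 (360 to 436) in the 42 with Col1a1, P4ha2 at 213 (170 to 263) and 122, and Plod2 at 739 (658 to 828) and 583 (538 to 630). Serpinh1 was lower in them, at 2109 (1970 to 2256) against 2408 (2316 to 2503). P4ha1, at 210 and 172, and Plod1, at 51.9 and 72.0, had overlapping intervals. Loxl2 was at 250 (203 to 303) in the 12 and 429 (391 to 470) in the 42.

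**Figure D4:**
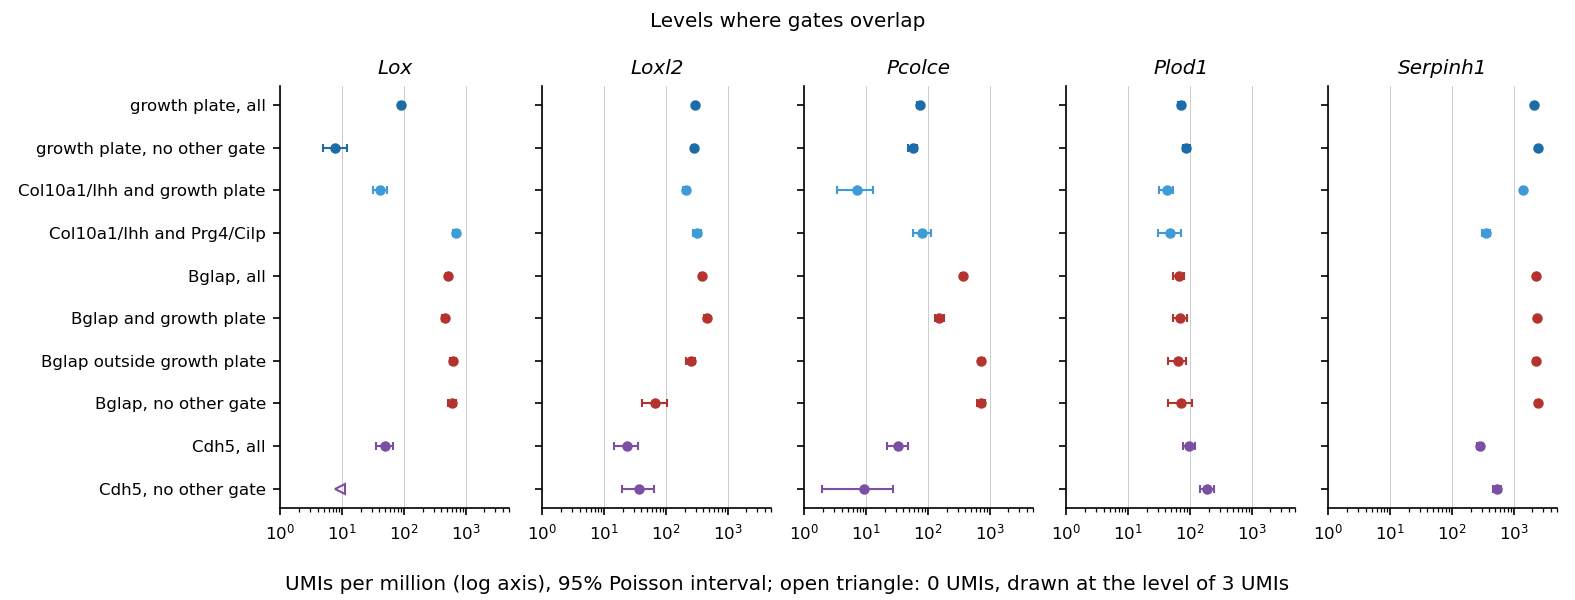
CPM (log axis, Poisson 95% intervals) of 5 genes in whole gates, in their overlaps and in cells of no other gate; an open triangle marks 0 UMIs and is drawn at the level of 3 UMIs. Lox is at 89.9 in the growth-plate gate and 7.75 in its cells of no other gate, and Plod1 at 97.2 in the Cdh5 gate and 188 in its cells of no other gate.

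The sum of the 10 genes was then set against their substrate, the 11 fibrillar collagen chains. Fibrillar chains made up 12.4% of UMIs in Bglap osteoblasts, 6.68% in growth-plate chondrocytes, 4.48% in fibroblasts and 1.92% in Prg4/Cilp cells. For each 1000 fibrillar UMIs the 10 genes had 41.7 UMIs (40.7 to 42.6) in Bglap osteoblasts, 57.3 in Col10a1/Ihh cells, 69.0 in growth-plate chondrocytes, 78.2 in fibroblasts and 157 (153 to 160) in Prg4/Cilp cells. Cxcl12 stroma had 687 (606 to 778). The summed enzymes, at 5155 CPM in osteoblasts and 2013 in stroma, thus differed less between those gates than the collagens. All 10 genes were seen in 8 of 54 Bglap cells, 4 of 243 growth-plate chondrocytes and 1 of 23 stromal cells, and the median number per cell was 8, 8 and 5.
Between cells of a gate, the summed share of the 10 genes in the remaining UMIs and the share of fibrillar chains gave Spearman's rho of 0.76 in 54 Bglap cells, 0.64 in 164 fibroblasts, 0.58 in 197 Prg4/Cilp cells, 0.57 in 243 growth-plate cells, 0.48 in 79 Col10a1/Ihh cells, 0.44 in 23 stromal cells and 0.21 in 89 Cdh5 cells. In the Col10a1/Ihh gate rho was 0.87 for Serpinh1 and -0.62 for Lox. Cells share depth and library, and the Prg4/Cilp overlap is part of that gate, so these are descriptions without a test.

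The Bglap gate was compared with the growth-plate gate to ask which steps differ between bone and cartilage. Genes were counted as different when 2-fold apart, if the UMIs of both groups summed to 50 or more, and a cell in both gates counted in the gate named first, here as an osteoblast. Of the 10 genes 2 were higher in osteoblasts and 0 lower, where 4.9% of all 7998 genes tested were higher and 13.6% lower. Lox was at 514 against 19.8 CPM, a log2 ratio of 4.70 (4.39 to 5.02). Pcolce was at 369 against 57.3, a log2 ratio of 2.69 (2.47 to 2.90). The other 8 lay between -0.70 for Plod2 (626 against 1017) and 0.53 for Loxl2. The median log2 ratio was -0.08 for the 10 genes and -0.22 for all genes. For Serpinh1 the log2 ratio was 0.18 (0.13 to 0.24), and -0.02 in cells of 1 gate only. With those cells Lox (6.26) and Pcolce (3.68) stayed higher while Loxl2 (-2.08), P4ha1 (-1.13) and Plod2 (-1.09) became lower in osteoblasts, and without the Bglap cells lacking Col1a1 Plod3 became so (-1.26).
Of 37 other genes of the pathway 32 were tested, and 4 were higher and 2 lower, with a median of -0.19. The higher ones were the N-propeptidase Adamts2 (4.94), the ER stress transducer of osteoblasts Creb3l1 (3.07), Fkbp7 (2.31) and the C-propeptidase Bmp1 (1.81). The lower ones were Colgalt2, which adds galactose to hydroxylysine (-2.07), and P4ha3 (1 against 61 UMIs).

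**Figure D5:**
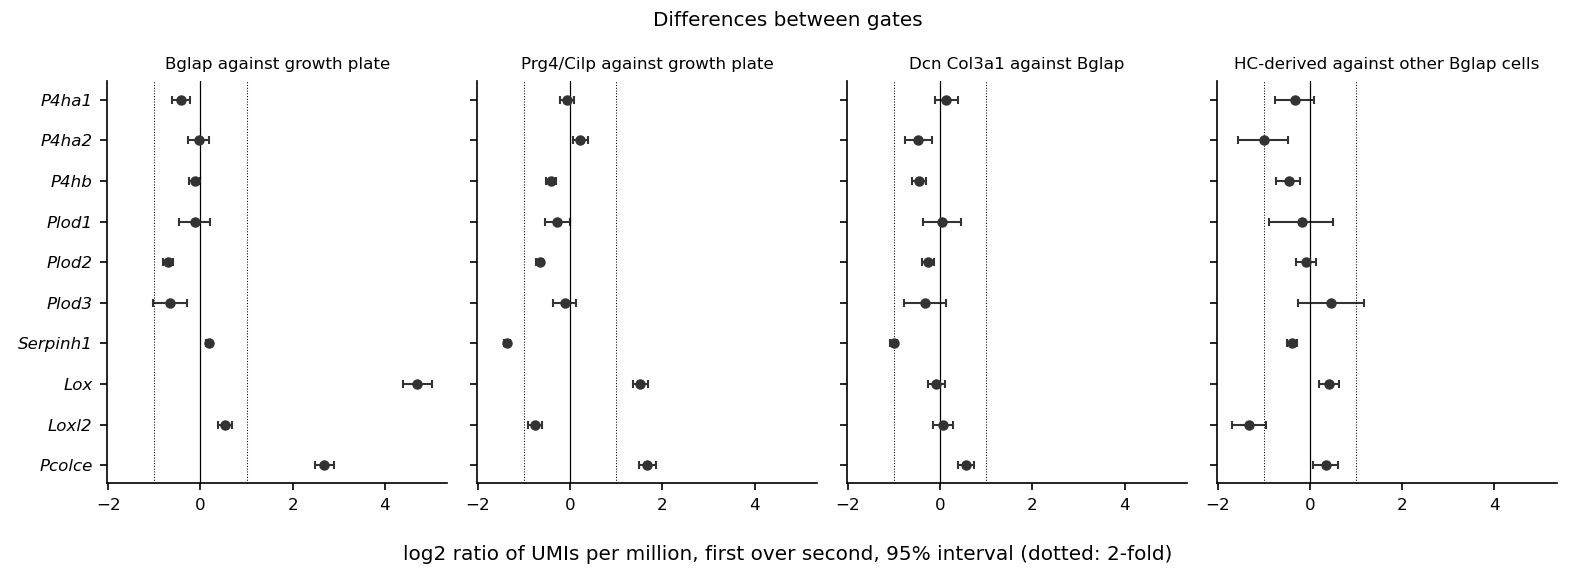
log2 ratios of CPM with exact conditional 95% intervals for the 10 genes in 4 comparisons; dotted lines mark 2-fold. Lox (4.70) and Pcolce (2.69) stand apart in Bglap against growth-plate cells, and Loxl2 (-1.31) is the gene past 2-fold between HC-derived and other Bglap cells. This Loxl2 ratio is -0.15 at a limit of more than 9 WPRE UMIs and 0.62 at more than 4.

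Within cartilage, Col10a1/Ihh cells were set against the 200 growth-plate cells outside their gate. Of the 10 genes 0 were higher and 2 lower, where 4.82% of 7990 genes were higher and 10.2% lower. Pcolce was at 26.3 against 95.2 CPM (log2 ratio -1.85, -2.30 to -1.43) and Serpinh1 at 1136 against 2327 (-1.03, -1.10 to -0.97). Plod1 (-0.94) and Plod2 (-0.91) were just inside 2-fold on the lower side and Lox (0.96, 0.76 to 1.15) on the upper side. Lox was the value that depended most on the gates: without the cells in both the Bglap and growth-plate gates it was 4.50 and Pcolce -1.23. Serpinh1 was no longer past 2-fold when centred on the median of all genes (-0.90). The Col10a1/Ihh group also mixes cells of other gates. Its 43 cells shared with the growth-plate gate held Lox at 41.0 and Pcolce at 6.96 CPM. Its 35 cells shared with the Prg4/Cilp gate held 688 and 80.8, and were lower in Serpinh1 than the 43. Lox was at 107 in the 200 growth-plate cells. No setting left out the Prg4/Cilp cells, and their part in these ratios was not tested.
The median was -0.43 for the 10 genes, -0.35 for the pathway and -0.13 for all genes. Of the wider pathway 3 of 32 genes were higher, namely the lysyl oxidase Loxl4 (3.09), Pcolce2 (1.91) and the prolyl 3-hydroxylase P3h2 (1.61). Lower were Creb3l1 (-1.47), Adamts2 (2 against 124 UMIs) and P4ha3 (0 against 61 UMIs).

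Prg4/Cilp cells had Pcolce (log2 ratio 1.67, 1.48 to 1.86) and Lox (1.52, 1.35 to 1.68) higher than growth-plate cells and Serpinh1 lower (-1.38, -1.44 to -1.31). These were 2 and 1 of the 10 genes, where 9.76% of 8943 genes were higher and 7.15% lower. Serpinh1 stood at 796 against 2069 CPM. Lox depended on the growth-plate cells shared with the Bglap gate, and was 3.803 without them and 4.30 in cells of 1 gate only. Serpinh1 was then at -2.15. P4ha1 (-0.07), P4ha2 (0.21) and Plod3 (-0.12) were within 2-fold on either side. Plod2 (-0.66) became lower than 2-fold in cells of 1 gate only (-1.23). The median was -0.20 for the 10 genes, -0.34 for the pathway and 0.06 for all genes. Of 33 pathway genes tested 3 were higher, P3h2 (1.34), Adamts2 (1.25) and Loxl1 (1.04), and 8 were lower, led by Loxl4 (-2.91), the ER foldase Fkbp11 (-2.05), Bmp1 (-1.61) and Pcolce2 (-1.54).

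Cxcl12 stroma had Lox within 2-fold of osteoblasts, Pcolce only while the Bglap cells shared with the growth plate were included, and was lower in 5 other members. Compared with Bglap osteoblasts 0 of the 10 genes were higher and 5 lower, where 21.6% of 3821 genes were higher and 14% lower. The 5 were P4ha2 (log2 ratio -2.65, 5 UMIs in stroma), Loxl2 (-2.53), Plod2 (-2.41), P4ha1 (-1.82) and Serpinh1 (-1.60). Pcolce (-0.32, -0.72 to 0.06) and Lox (-0.54, -0.90 to -0.20) made up the exceptions together with P4hb, Plod1 and Plod3. P4hb was just inside 2-fold (-0.98, -1.41 to -0.58), and at -1.21 when centred on the median of all genes. Plod1 and Plod3 rest on 11 and 8 UMIs in stroma. For Loxl2 the median cell went the other way, 84.0 CPM in stroma and 53.3 in osteoblasts. The stromal median rests on 14 UMIs in 13 of 23 cells, with at most 2 in a cell. Median depth was 7733 UMIs in stroma and 25759.5 in osteoblasts, so 1 UMI weighs more in stroma. The median log2 ratio was -1.29 for the 10 genes, -0.64 for the pathway and 0.24 for all genes. Without the top cell of each group P4ha2 was at -3.29, and without the cells in both the Bglap and growth-plate gates P4ha2 was at -2.02 and Loxl2 at -1.92. In that setting Pcolce passed 2-fold and was lower in stroma as well (-1.29), as it was when the 16 stromal and 15 Bglap cells of 1 gate only were compared (-1.51). Loxl1, an oxidase known for elastin, was the pathway gene with the largest difference upwards (5.40), with Adamts2 (1.29) behind it. Of 30 pathway genes 10 were lower, among them Creb3l1 (-2.44), Pcolce2 (1 against 1359 UMIs), Fkbp11 (3 against 432) and Loxl4 (0 against 150).

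Fibroblasts were compared with the 42 Bglap cells outside their gate, the 12 shared cells counting as fibroblasts. They differed in 1 of the 10 genes, Serpinh1, at 1081 against 2173 CPM (log2 ratio -1.01, -1.09 to -0.92). None was higher, and 14.3% of 6355 genes were higher and 5.16% lower. The median was -0.17 for the 10 genes, -0.34 for the pathway and 0.16 for all genes. Without called doublets the ratio was -0.99, just inside 2-fold. In cells of 1 gate only Serpinh1 was at -1.76, Plod2 (-1.69) and Lox (-1.18) were also lower in fibroblasts, and Loxl2 was higher (1.45). Loxl2 moved to the other side (-1.08) when gate thresholds were doubled, so that its direction is not settled. Of 32 pathway genes Loxl1 was higher (107 against 1 UMI) and 7 were lower, led by Loxl4 (-3.44), Fkbp11 (-1.94), Pcolce2 (-1.64) and the prolyl 3-hydroxylase P3h1 (-1.46).

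Cdh5 cells were compared with fibroblasts, and 7 of the 10 genes were lower and 0 higher, where 12.6% of 6908 genes were lower and 21.4% higher. The log2 ratios of Plod2 (-4.05), P4ha2 (-4.00), Pcolce (-3.90), Loxl2 (-3.42) and Lox (-2.86) were the furthest from 0, and P4ha1 (-2.18) and Serpinh1 (-1.92) followed. P4hb (-0.88) and Plod3 (-0.81) were within 2-fold. Plod1 alone lay on the other side, at 0.46 (0.06 to 0.85), and passed 2-fold in cells of 1 gate only (1.15). Single cells weighed on the low genes. Without the top cell of each group Plod2 was at -5.31, P4ha2 at -5.52, Pcolce at -4.92 and Lox at -4.40. In cells of 1 gate only, which lack the Ptprc overlap, Pcolce was at -6.24, Plod2 at -4.83, Loxl2 at -2.31 and P4ha1 just past 2-fold lower, and Serpinh1 was within 2-fold of fibroblasts (-0.41). Lox had 0 UMIs in those Cdh5 cells and 136 in those fibroblasts. The median was -2.52 for the 10 genes, -1.73 for the pathway and 0.35 for all genes. Of 30 pathway genes 21 were lower and 0 higher, led by Pcolce2 (-6.12), Creb3l1 (-4.32), Kdelr3 (-3.84) and Fkbp14 (3 against 105 UMIs). Ptprc was seen in 52.8% of the Cdh5 gate, and the part of these in the ratios was not tested beyond the cells of 1 gate.

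Set against blood cells outside other gates, Bglap osteoblasts had 9 of the 10 genes higher and 0 lower, where 16% of 11535 genes were higher and 35.4% lower. Lox (log2 ratio 9.28), Serpinh1 (9.05), Pcolce (9.0), Loxl2 (8.39), P4ha2 (8.31) and Plod2 (8.00) formed a first group. In cells of 1 gate only Loxl2 was at 5.89. P4ha1 (3.59), Plod1 (2.71) and P4hb (1.72) formed a second, and Plod3 (0.81, 0.46 to 1.14) did not reach 2-fold unless centred on the median of all genes (1.32). The median was 8.15 for the 10 genes, 5.60 for the pathway and -0.51 for all genes. Of 32 pathway genes 24 were higher, led by Loxl4 (150 against 0 UMIs), Pcolce2 (10.08), P3h4 (8.95) and Fkbp10 (8.78). Tmem38b, an ER ion channel whose loss causes brittle bone, was lower (-2.18).

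Bglap cells with more than 14 WPRE UMIs, the study's limit for HC-derived cells, were compared with the others. WPRE is the element at the end of the tdTomato transcript. HC origin and loss of 1 Mmp14 allele cannot be told apart here. Of the 54 Bglap cells 17 were HC-derived and 37 were not. Of the 54, 10 also lay in the Col10a1/Ihh gate. Col10a1 was seen in 2 of the 17 and 5 of the 37, at 4240 and 974 CPM. Some of these cells may be chondrocytes, so HC-derived is used here as a label for the WPRE count. Of the 10 genes 0 were higher and 1 lower, where 3.44% of 3172 genes were higher and 7.72% lower. The gene was Loxl2, at 183 (144 to 230) against 456 (416 to 498) CPM, a log2 ratio of -1.31 (-1.68 to -0.96). In the HC-derived cells 60.0% of its UMIs came from 1 cell, and the medians were 37.4 and 125. Without the top cell of each group the log2 ratio was -2.28. At a limit of more than 9 WPRE UMIs the log2 ratio was -0.15, at more than 4 it was 0.62, and without the cells also in the growth-plate gate it was -0.23.
P4ha2 was at 85.5 against 171, just short of 2-fold, with the interval of its log2 ratio from -1.56 to -0.47. Lox was at 626 (551 to 707) against 471 (430 to 514), in 88.2% of 17 cells against 62.2% of 37 (67.9% and 44.0% after thinning), with medians of 629 and 112. Its log2 ratio was 0.41 (0.19 to 0.63), with 0.14 without the Bglap cells lacking Col1a1, 0.06 in cells of 1 gate only and -0.11 without the cells also in the growth-plate gate, but 1.496 at more than 4 WPRE UMIs, so its direction is not settled. Serpinh1 was at 1904 against 2488 and seen in all cells of both groups, and Plod2 was at 599 against 636. Several other measures moved with the groups. Ptprc was seen in 11.8% of HC-derived and 32.4% of other Bglap cells, all 8 neutrophil markers were detected in both and summed to 459 and 12741 CPM, and the 9 growth-plate chondrocyte markers, none of them at 0, summed to 6733 and 18506. The 5 erythroid markers summed to 16029 and 26979. Of the 12 Bglap cells without Col1a1 2 were HC-derived. The part of these in the differences was not tested. Of 29 pathway genes 0 were higher and 2 lower, P3h2 (-1.88) and Pdia6 (-1.32), and the median was -0.31 for the pathway, -0.25 for the 10 genes and -0.06 for all genes.
The same limit divided the Col10a1/Ihh gate into 45 cells with more than 14 WPRE UMIs and 34 with at most 14. The cells of this gate are themselves chondrocytes, so they are named by their WPRE count and not by descent. Serpinh1 was at 590 (545 to 638) in the former and 1802 (1715 to 1892) in the latter, and Lox at 299 (267 to 333) and 94.4 (75.3 to 117). Of the 35 cells shared with the Prg4/Cilp gate, which were low in Serpinh1 and high in Lox, 24 had more than 14 WPRE UMIs. Cells above and below the limit were not compared within or outside that overlap, and its part in these values was not tested. In Cxcl12 stroma 10 cells lay above the limit and 13 did not, and Serpinh1 was at 657 (507 to 837) and 862 (700 to 1050).

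Finally, the genes with the most similar profiles over the 8 gates were listed by Pearson's r of log2(CPM + 10), among 10611 genes. The 8 points share cells through the gate overlaps, so r is a description. P4hb was closest to P3h4 (0.996), a partner of lysyl hydroxylation in the ER, then to Rexo2 (0.985) and Dnajc25 (0.985). Serpinh1 was closest to Rcn3 (0.996), a calcium-binding protein of the ER lumen, Tmem214 (0.990) and Lman1 (0.988), a cargo receptor of the secretory pathway. Pcolce came nearest to Dnpep (0.968), the mesenchymal transcription factor Twist1 (0.967) and the collagen chain Col5a1 (0.961), and Lox to Nuak1 (0.964), Acadvl (0.960) and Ctsf (0.957). Loxl2 was nearest to Slc2a13 (0.992), Dnajc25 (0.989) and Copz2 (0.989). For P4ha1 the list held Tgfb2 (0.986), Sparc (0.986), an abundant matrix glycoprotein of bone, and Dnajc25 (0.981), and for P4ha2 it held Cox4i2 (0.994), Pde4dip (0.992) and Prrc1 (0.983). Plod2 was nearest to Dnajc25 (0.993), Tbrg1 (0.989) and Prrc1 (0.988) and Plod3 to Scfd1 (0.986), S100a1 (0.984) and Msmo1 (0.984). Plod1 had the weakest best matches, Cdr2l (0.944), Pou3f1 (0.930) and Pex14 (0.926). Among the 10 genes P4ha1, P4ha2, P4hb, Plod2 and Loxl2 gave r of at least 0.953 with each other. Lox and Pcolce paired at 0.869 and stood at 0.743 and 0.580 with Loxl2.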

How the data were processed

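Single-cell libraries (10x Genomics) were made by the authors from tibial cells. The deposited matrix holds raw UMI counts per gene and barcode, made with Cell Ranger 3.1.0 on mm10 per the labels, which also name Seurat 3. Counts were used as deposited, with no normalization other than division by the summed UMIs. Barcodes with at least 1600 genes were kept, as in the study, with no mitochondrial limit and with Scrublet doublets (445 of 12564 barcodes, scanpy 1.11.5) kept. Ratios are of CPM from summed UMIs, with exact conditional intervals (scipy 1.17.1), computed for all genes and checked on simulated counts. The simulated counts followed the Poisson law that the intervals assume, so the check says nothing of spread between cells. WPRE came from the deposited counts of exogenous sequences. Of 174 listed genes 173 were used, since Aldoa has 2 identifiers. Gates have a raw-count rule, and thinned shares were computed exactly rather than drawn.

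The members, gates and gene lists were chosen with earlier results of these data known. All 10 members are named, and of the pathway list up to 4 genes per direction with the largest ratios. For each member the 3 genes with the highest r are named, among genes with at least 200 UMIs over the gates. Alternatives covered the gene floor, mitochondrial share, gate thresholds, overlaps, doublets, cell weights, abundant genes, centring, the top cell and WPRE limits. Leaving out cells in both the Bglap and growth-plate gates, and Bglap cells without Col1a1, was added after seeing the data. No replicate could be left out, since cells carry no sample.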

Additional observations from a re-analysis of the deposited data

How the results depend on the processing

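No paired analysis was possible because the pooled barcodes carry no sample or replicate number, and for the same reason no replicate could be left out. With the alternatives, 150 counts of genes past 2-fold stayed within 1.5 times and 28 moved, and of 869 single ratios 675 stayed within their counting interval. The sign changed in 44, of which 1 had been past 2-fold and 43 within it. Cells in 1 gate only gave 3 lower in osteoblasts against growth-plate cells and 2 lower in Prg4/Cilp against growth-plate cells. They gave 3 lower of 5 members tested in stroma, and 3 lower and 1 higher of 9 tested in fibroblasts against osteoblasts. In Cdh5 cells 1 was higher of 7 with a finite ratio, and Lox, with 0 against 136 UMIs, was left out of that count. In HC-derived osteoblasts 0 were lower of 5, where Loxl2 had too few UMIs to be tested. This setting gave no value for Col10a1/Ihh cells, none of which lies in 1 gate only. Doubled thresholds gave 1 higher in Col10a1/Ihh cells, 2 lower in fibroblasts and 1 higher in Cdh5 cells. Without doublets fibroblasts had 0 lower. In Col10a1/Ihh cells 1 was higher with equal cell weights, and 1 was higher and 1 lower both without the 50 most abundant genes and after centring. For HC-derived osteoblasts, 2 were lower with a floor of 1000 genes, with a mitochondrial limit of 20% and without the top cell, 0 lower and 2 higher with WPRE above 4 (Loxl2 then at 0.62), and 0 lower with WPRE above 9. Leaving out cells in both the Bglap and growth-plate gates gave 2 lower in osteoblasts, 1 higher and 4 lower in Col10a1/Ihh cells and 0 lower of 8 tested in HC-derived osteoblasts. Leaving out Bglap cells without Col1a1 gave 1 lower in osteoblasts and 1 higher in Col10a1/Ihh cells. Fewer cells remain in the last 2 settings and in cells of 1 gate, and elsewhere the cause was not tested. The 23 stromal and 17 HC-derived cells limit the precision, as do the smaller overlap sets.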
